A study of Homo sapiens with 4 samples.

Results

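The genes described here are the nuclear-encoded subunits of the respiratory chain and of ATP synthase, chosen by symbol: the NDUF series of complex I, SDHA to SDHD of complex II, the UQCR series and CYC1 of complex III, the COX4 to COX8 series of complex IV, the ATP5 series of ATP synthase (complex V) and cytochrome c (CYCS). In a table of 20252 gene symbols, 91 matched. Of these, 77 were tested genes that encode a current subunit, and 7 were tissue isoforms of complex IV too low to be tested. The other 7 rows were copies (UQCRHL, UQCRBP1, ATP5EP2 and ATP5L2), read-throughs (NDUFC2-KCTD14 and ATP5J2-PTCD1, at 0 in all 4 libraries) and COX4NB, the older symbol of EMC8, which belongs to a membrane protein complex of the endoplasmic reticulum. NDUFA4 was counted in complex IV, where its protein is found, in spite of its symbol. Mitochondrially encoded subunits were not analysed here.

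The libraries were made from poly(A) RNA of the established human line H2030, derived from a lung adenocarcinoma. Cells of passage 5 to 10 had been grown for 2 days in serum-containing RPMI. The 2 libraries labelled GALNT3 overexpression (numbered 1 and 2) were compared with 2 labelled control vector (also numbered 1 and 2), and no other treatment is recorded. The labels name neither the promoter that drives GALNT3, nor whether a line is 1 clone or a pool, nor whether the libraries of a label are separate cultures. The p-values therefore reflect only how far these particular libraries spread, which may be technical. GALNT3, the Golgi transferase that places the first sugar of mucin-type O-glycans, went against its label: it stood at 0.0164 and 0 FPKM (fragments scaled by transcript length and library total) in the overexpression-labelled libraries, against 4.34 and 5.34 FPKM in those labelled vector. Every direction below is drawn between libraries as labelled and would turn if the labels were exchanged.

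The respiratory chain carries electrons from NADH (complex I) and succinate (complex II) through coenzyme Q, complex III and cytochrome c to oxygen at complex IV. The proton gradient made on the way drives ATP synthase. Most subunits are encoded in the nucleus and imported, and they are assembled with a few subunits made inside the mitochondrion. Several complex IV subunits exist as a broadly used isoform and a second isoform tied to heart and skeletal muscle, lung, testis or low oxygen, so the isoform pattern marks the kind of cell.

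Column sums ranged from 427665 to 448194 FPKM in the overexpression-labelled libraries and from 401366 to 435119 in those labelled vector. The total number of reads is unknown, and the relative depth of the 4 libraries, read from the steps in low values, lay between 0.966 and 1.07. Of 10 markers of simple epithelium and lung adenocarcinoma, KRT8, KRT18 and KRT7 had a mean of at least 1 FPKM. The lung lineage markers NKX2-1, NAPSA, SFTPB and SFTPC were below 1 FPKM in every library. Summed, this list, mostly KRT18 and KRT8, gave 569 to 590 FPKM in the overexpression-labelled libraries and 448 to 519 in those labelled vector. KRT7 went the other way, at 4.24 and 5.18 FPKM under the overexpression label and 7.50 and 7.18 FPKM under the vector label. EPCAM was at 0.459 to 1.40 FPKM over the 4 libraries, CDH1 at 0.0495 to 0.209 FPKM, and KRT19 at 0. Of the other marker lists, 2 of 8 fibroblast, 1 of 7 leukocyte, 0 of 5 endothelial, 2 of 8 striated muscle and 0 of 6 germ cell markers reached a mean of 1 FPKM. The leukocyte sum, nearly all of it CD68, was 16.6 to 18.1 FPKM in the overexpression-labelled libraries and 27.5 to 30.7 FPKM in those labelled vector, with CD3E at 0. The fibroblast sum, mostly COL3A1, was 19.2 to 26.8 FPKM in the overexpression-labelled libraries and 14.5 to 17.9 FPKM in those labelled vector, with DCN and THY1 at 0. Their part in the results below was not tested.

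In each family of complex IV subunits with a tissue isoform, H2030 cells carried the broadly used isoform at high levels, while the tissue isoform was at or near 0 in all 4 libraries. Subunit 4, a large nuclear-encoded subunit that helps set the response of the enzyme to ATP, came from COX4I1, at 421 and 385 FPKM in the overexpression-labelled libraries and 418 and 365 FPKM in those labelled vector. COX4I2, its lung and low-oxygen isoform, was listed at 0 and 0 FPKM in the overexpression-labelled libraries and at 0 and 0.104 FPKM in those labelled vector. The lung isoform was above 0 in 1 of the 4 libraries.

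Subunit 6A is the family whose isoforms differ most plainly by tissue, with COX6A2 confined largely to heart and skeletal muscle. COX6A1 stood at 500 and 429 FPKM in the overexpression-labelled libraries and 448 and 424 FPKM in those labelled vector, and COX6A2 was listed at 0 in all 4. The promoters of this pair are shown because one gene was abundant and its relative was not seen. They are the 250 bases before the RefSeq start (GRCh38.p14), printed 5′ to 3′ on the gene's strand: COX6A1 at chr12:120437863-120438112 (plus strand) and COX6A2 at chr16:31428361-31428610 (minus strand). Capitals mark matches to 3 short motifs: GCATGCGC of the nuclear respiratory factor NRF1 and CCGGAAG of the ETS family that includes GABP, each searched on either strand, and TATAAA, searched on the gene's strand.
COX6A1: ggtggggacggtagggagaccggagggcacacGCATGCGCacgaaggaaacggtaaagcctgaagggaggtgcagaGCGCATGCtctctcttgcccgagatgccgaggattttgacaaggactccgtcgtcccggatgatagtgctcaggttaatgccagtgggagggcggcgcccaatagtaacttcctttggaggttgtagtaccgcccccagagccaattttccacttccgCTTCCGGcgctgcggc
COX6A2: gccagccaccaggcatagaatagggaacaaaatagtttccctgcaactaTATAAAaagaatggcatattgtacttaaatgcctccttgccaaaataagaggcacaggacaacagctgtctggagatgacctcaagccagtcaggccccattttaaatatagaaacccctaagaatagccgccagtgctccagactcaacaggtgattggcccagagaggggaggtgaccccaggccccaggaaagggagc
The COX6A1 promoter held 2 NRF1 motifs, beginning at -218 and -174 relative to the start, and 1 ETS motif beginning at -16, and these matches did not overlap. The COX6A2 promoter held neither motif and had TATAAA beginning at -201. CpG dinucleotides were at 0.857 of the number their base content would give in COX6A1 and at 0.0661 in COX6A2. A match is a description of the letters and not a measured binding site.

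RefSeq promoters were matched for 71 of the 91 genes, of which 64 belong to tested subunits. The NRF1 motif was in 13 of these 64 (20.3%), compared with 5.41% of 8056 promoters matched to tested genes and 2.81% of 27305 promoters of any gene. The 8056 are a part of the 10998 tested genes. Members were matched by current symbol but other genes by deposited symbol, so other genes since renamed drop out. The 13 genes span every complex but complex III: NDUFA6, NDUFB4, NDUFS6 and NDUFS7 of complex I, SDHB and SDHD of complex II, COX5B and COX6A1 of complex IV, ATP5C1, ATP5G2, ATP5I and ATP5J of ATP synthase, and CYCS. The ETS motif was in 16 of the 64 (25%), compared with 17.1% of tested genes and 8.82% of all promoters, and 37.5% held at least 1 of the 2 motifs, compared with 21.3% and 11.1%. TATAAA was in 4.69% of the promoters of tested subunits, 3.15% of those of tested genes and 7.18% of all promoters. Among the 5 tissue isoforms with a matched promoter, 0 held the NRF1 or ETS motif and 1 held TATAAA. The motifs did not separate the isoforms in every family. Of the broadly used forms, COX6A1, COX6B1 and COX8A held the NRF1 or ETS motif. COX4I1, COX7A2, COX7B and NDUFA4 held neither, and COX7B held TATAAA. For 69 of the 71 promoters the bases after the start were found in a GENCODE transcript of the gene. They were not for NDUFA5 or for the tissue isoform NDUFA4L2, whose windows may not be the promoters in use. A start that was found need not be in use either. COX7A2 had 2 listed starts and NDUFC1 had 4, and only the first was searched.

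The other families of complex IV repeated the isoform pattern. COX7A2, the non-muscle form of subunit 7A, was at 235 and 198 FPKM in the overexpression-labelled libraries and 203 and 191 FPKM in those labelled vector, while COX7A1, its muscle form, was at 0.181 and 0.0913 FPKM under the overexpression label and 0.0822 and 0 FPKM under the vector label. COX7A2L, a relative that joins complexes III and IV into supercomplexes, was at 78.3 and 68.7 FPKM under the overexpression label and 72.3 and 63.6 FPKM under the vector label. Of the 8 striated muscle markers TNNT1 was at 62.05 and 54.28 FPKM in the overexpression-labelled libraries and 64.5 and 48.4 FPKM in those labelled vector, while MYH7 and TNNT2 were at 0.

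Testis isoforms were as low. COX6B1 was at 317 and 271 FPKM in the overexpression-labelled libraries and 274 and 259 FPKM in those labelled vector, with COX6B2 at 0.0863 and 0.0348 FPKM under the overexpression label and 0.0313 and 0.102 FPKM under the vector label. COX8A was at 355 and 319 FPKM in the overexpression-labelled libraries and 342 and 293 FPKM in those labelled vector, with COX8C at 0 and 0 FPKM under the overexpression label and 0.422 and 0.153 FPKM under the vector label. COX8C in the vector library numbered 1 gave the largest share of any tissue isoform in its family, 0.123%. COX7B was at 170 and 153 FPKM in the overexpression-labelled libraries and 163 and 147 FPKM in those labelled vector, with COX7B2 listed at 0 in all 4. Of 6 germ cell markers, 5 were also at 0 in all 4 libraries. An exact 0 in such a table can be a failed estimate, so these are listed values and not proof of absence.

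NDUFA4L2, which replaces NDUFA4 in low oxygen, was listed at 0 in all 4 libraries. NDUFA4 stood at 32.7 and 32.0 FPKM in the overexpression-labelled libraries, against 28.5 and 25.6 FPKM in those labelled vector. It was the lowest of the tested complex IV subunits, and COX7C, the highest, averaged 31.6 times its level.

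**Figure D1:**
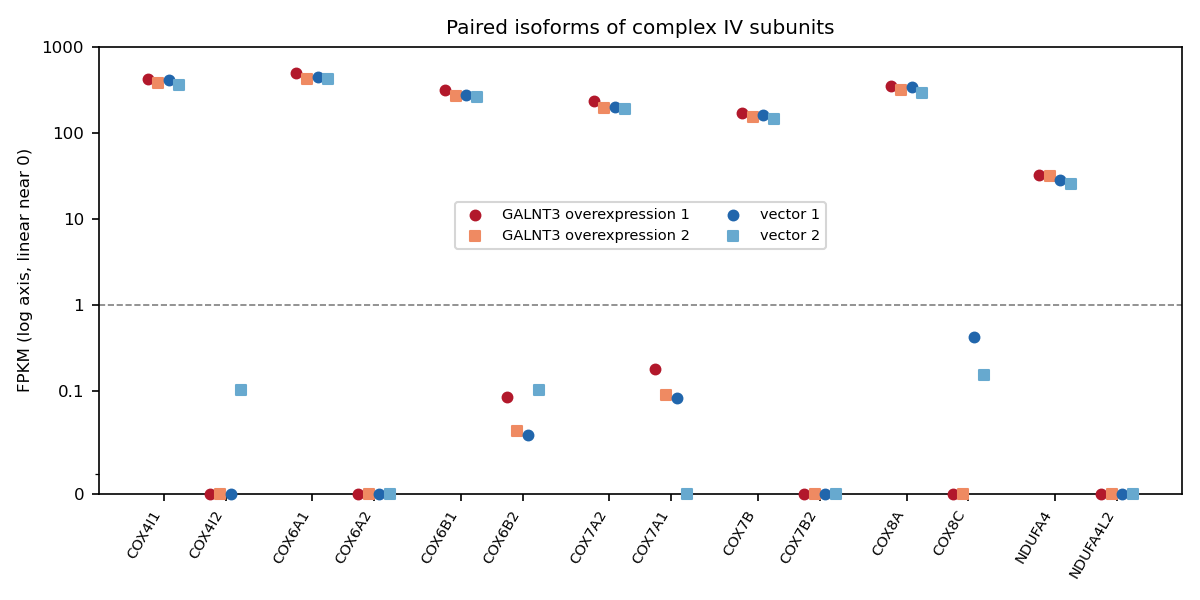
Levels of the broadly used and the tissue isoform of each complex IV family in FPKM (log axis that turns linear near 0), with a point for each of the 2 overexpression-labelled libraries (red, orange) and the 2 labelled vector (dark and light blue). The dashed line marks the mean of 1 FPKM a gene needed to be tested. Every broadly used isoform lies well above it and every tissue isoform below it in all 4 libraries.

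Subunits of the same complex differed far more in transcript level than the groups did. Over the tested genes the highest mean was 102 times the lowest. ATP5E, the epsilon subunit of the F1 part of ATP synthase, was highest, at 1177 and 1031 FPKM in the overexpression-labelled libraries and 1141 and 970 FPKM in those labelled vector. COX7C, a small subunit of complex IV, followed at 1021 and 893 FPKM under the overexpression label and 975 and 862 FPKM under the vector label, and ATP5B, the catalytic beta subunit, at 560 and 528 FPKM under the overexpression label and 535 and 478 FPKM under the vector label. ATP5E lay above COX7C in each library although their ranges overlapped, and ATP5B lay below both in every library.

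Complexes IV and V were the abundant ones, with a median of 204 FPKM over 12 subunits and 199 FPKM over 15, while the medians were 69.5 FPKM in complex I (36 subunits), 65.3 FPKM in complex II (4) and 72.0 FPKM in complex III (9). The medians of complexes I, II and III lay within 60.5 to 76.3 FPKM in any library and those of complexes IV and V within 182 to 227 FPKM. Within complex II, the enzyme shared with the citric acid cycle, levels were the most even: SDHB, the iron-sulfur subunit, was at 89.2 and 74.4 FPKM in the overexpression-labelled libraries and 77.0 and 70.1 FPKM in those labelled vector. SDHD, a membrane anchor and the lowest of the 4, was at 53.0 and 44.3 FPKM under the overexpression label and 53.9 and 50.3 FPKM under the vector label, so that SDHB averaged 1.54 times SDHD.

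Complex I spanned a 30.3-fold range. At its top, NDUFS5, an accessory subunit, was at 368 and 304 FPKM in the overexpression-labelled libraries and 329 and 287 FPKM in those labelled vector. At its bottom, NDUFA10, an accessory subunit of the matrix side, was at 10.9 and 11.4 FPKM under the overexpression label and 10.5 and 9.74 FPKM under the vector label. In complex III the hinge protein UQCRH was at 398 and 337 FPKM in the overexpression-labelled libraries and 346 and 318 FPKM in those labelled vector, and UQCRB, the lowest of the 9, at 34.9 and 31.5 FPKM under the overexpression label and 34.8 and 32.0 FPKM under the vector label. Cytochrome c, the mobile carrier between complexes III and IV, was at 34.3 and 29.7 FPKM under the overexpression label and 30.1 and 31.1 FPKM under the vector label. The range of CYCS overlapped that of UQCRB.

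Some levels cannot be assigned with certainty, because part of the sequence also occurs in other annotated genes. UQCRHL, an intronless copy of UQCRH, was at 22.4% and 22.6% of the UQCRH level in the overexpression-labelled libraries and 22.6% and 22.1% in those labelled vector, and 29.4% of the 50-base stretches of UQCRH transcripts also occur in UQCRHL. UQCRBP1 was at 65.7% and 59.8% of UQCRB under the overexpression label and 61.2% and 66.9% under the vector label. ATP5EP2 was at 1.43% and 1.39% of ATP5E under the overexpression label and 1.26% and 1.65% under the vector label. For these parents the shared part was small: 1.26% of the 50-base stretches of UQCRB and 0.29% of those of ATP5E occur in other annotated genes. Whether shared sequence contributes to the UQCRBP1 level was not tested. More than 50% of the 50-base stretches were shared with another annotated gene in 3 tested subunits: NDUFA7 (73.7%), ATP5O (64.3%) and NDUFB8 (63.8%). For COX6A1 it was 44.0%, most of it in a pseudogene. COX4NB lies beside COX4I1 on chromosome 16, on the opposite strand, and their annotated starts overlap. Whether strand was used in counting is not given in the sources used here.

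**Figure D2:**
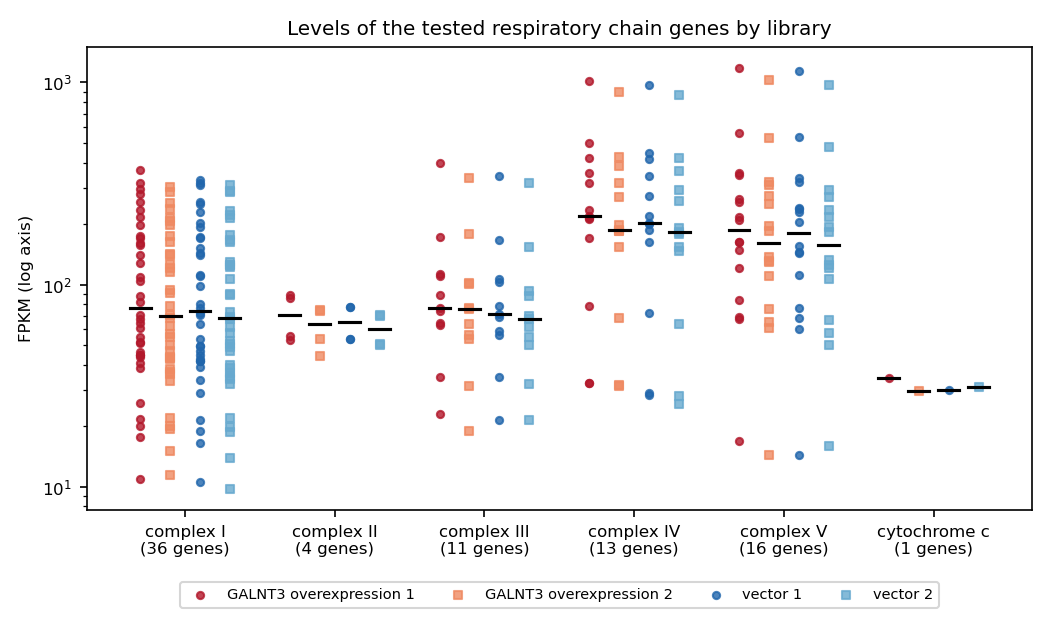
FPKM (log axis) of every tested respiratory chain gene, copies and COX4NB included, by complex and library; each point is a gene and each black bar the median of that library. Complexes IV and V lie higher than complexes I to III in all 4 libraries, and the spread among genes of a complex is far wider than the shift between libraries.

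No respiratory chain gene passed the test between the overexpression-labelled libraries and those labelled vector. Genes averaging 1 FPKM or more were compared on the log2(FPKM + 1) scale with limma, adjusting p over all 10998 genes at a threshold of 0.05. Of the 81 tested members 0 passed, where 0.500% of all tested genes did (0.109% higher and 0.391% lower). At an unadjusted p below 0.05 limma listed 1 member (NDUFA4), where it listed 7.34% of all genes (3.62% higher and 3.72% lower). The lowest adjusted p among members was 0.570 (limma). In bulk RNA, fewer cells that express a gene and less RNA per cell cannot be told apart.

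The absence of calls came with narrow intervals. All 81 members had an unadjusted 95% interval that lay within a 1.5-fold change in either direction, as did 92.2% of all tested genes. Intervals reached a median of 0.25 to either side of the estimate on the log2 scale, and the widest reach was -0.46 downward and 0.52 upward. Estimated changes ran between 0.874-fold and 1.19-fold. Their SD over the 81 members was 0.084 on the log2 scale, less than the median standard error of 0.109, while the SD over all tested genes was 0.21. A shift between libraries that members share enters the standard error but not the SD over members. The SD and the standard error are therefore not alike.

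More estimates were above 0 than below as deposited, and the count depended on the scaling. The log2 change was above 0 in 65 of 81 members, where 55.3% of all genes were above 0, but in 46 of 81 with all libraries scaled to a common column sum (35.5% of all genes) and in 45 of 81 after quantile normalization (51.0%). The median log2 change was 0.088, compared with 0.016 over all tested genes. With the common column sum it was 0.021 for the members and -0.047 for all tested genes, so both moved down together. The member median was 0.0089 after quantile normalization, 0.00 without overexpression-labelled library 1 and 0.010 without vector library 2. Both overexpression-labelled libraries lay above both labelled vector in 17 members (21.0%), close to the 20.9% of all genes, and below both in 1 (1.23%), NDUFA1, where 15.3% of all genes did so. With the common column sum these counts were 19 above and 10 below, where 11.6% and 28.4% of all genes did so, and with quantile normalization 18 and 9 (19.9% and 17.4%).

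Single libraries of the same label differed more than the means of the 2 labels did. The library numbered 1 lay above the library numbered 2 under both labels in 70 of 81 members (86.4%), where 47.7% of all genes did so, and the reverse held in 0 members (20.8% of all genes). The median difference between library 1 and library 2 over the members was 0.18 under the overexpression label and 0.14 under the vector label. The median difference between the label means was smaller, 0.088. Means of 2 libraries vary less than single libraries, so the 2 measures are not alike. Overexpression-labelled library 1 was highest in 64 of 81 members, where it was highest in 28.8% of all genes. Vector library 2 was lowest in 59 members, where it was lowest in 41.5% of all genes.

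Library 1 also lay above library 2 outside the chain. Relative to each gene's mean over the 4 libraries, the member median was 0.126 and -0.044 in the overexpression-labelled libraries and 0.035 and -0.118 in those labelled vector. For 83 ribosomal protein genes it was 0.144 and -0.019 under the overexpression label and 0.039 and -0.155 under the vector label, and library 1 lay above library 2 under both labels in 81 of the 83. For all tested genes it was 0.020 and -0.0029 under the overexpression label and 0.032 and -0.046 under the vector label. The members made up 3.08% and 2.86% of the FPKM column sums in the overexpression-labelled libraries, against 3.003% and 2.90% in those labelled vector. Their transcripts are short, with a median annotated length of 712 bases compared with 1762.5 bases for all tested genes. Among all tested genes under 750 bases library 1 lay above library 2 under both labels in 52.0%. The part of RNA composition or library preparation in this order was not tested.

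**Figure D3:**
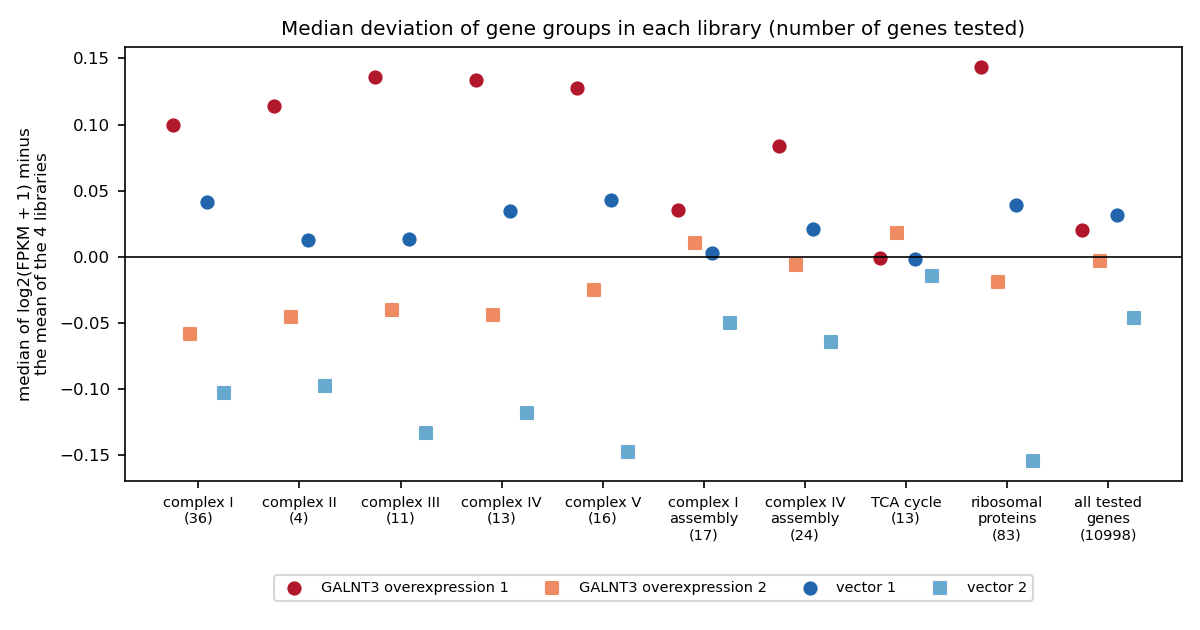
Median deviation of log2(FPKM + 1) from each gene's mean over the 4 libraries, for the 5 complexes, 3 related lists, ribosomal proteins and all tested genes, with a point per library. In every complex the libraries numbered 1 (circles) lie above those numbered 2 (squares). The gap within a label is wider than that between overexpression-labelled (red, orange) and vector (blue) libraries of the same number. Ribosomal proteins show the same order.

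Complex I takes electrons from NADH and is the largest of the complexes. Its 36 tested subunits summed to 4251 and 3713 FPKM in the overexpression-labelled libraries and to 4086 and 3671 FPKM in those labelled vector. In limma 0 of them passed, where 0.500% of all tested genes did, and 0 had an unadjusted p below 0.05, where 7.34% did. The log2 change was above 0 in 24 and below 0 in 12, with a median of 0.048. That median was -0.018 with the common column sum, where all tested genes had -0.047. It was -0.017 with quantile normalization, -0.040 without overexpression-labelled library 1 and -0.017 without vector library 2. Its 7 core subunits, which hold the flavin and iron-sulfur centres, had a median change of 0.10, and its 29 accessory subunits 0.039.

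Among complex I subunits the lowest estimate belonged to NDUFA1, a small membrane subunit encoded on the X chromosome (119871487 to 119876662, GRCh38). It was at 298 and 253 FPKM in the overexpression-labelled libraries, against 318 and 310 FPKM in those labelled vector, which is -0.19 ± 0.11 on the log2 scale (SE; limma, adjusted p = 0.791). The groups did not overlap, and as deposited no other tested member had both overexpression-labelled libraries below both labelled vector. Such members numbered 10 with the common column sum and 9 with quantile normalization. The highest estimate was that of NDUFA8, an accessory subunit with paired cysteine motifs, at 43.7 and 43.7 FPKM under the overexpression label and 41.7 and 34.8 FPKM under the vector label (log2 change 0.19, 95% interval -0.053 to 0.44; limma, adjusted p = 0.778).

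NDUFA7 and NDUFA9 were among the 6 members with the smallest unadjusted p. NDUFA9, an accessory subunit near the coenzyme Q site, was at 38.5 and 36.0 FPKM in the overexpression-labelled libraries and 33.8 and 32.2 FPKM in those labelled vector (limma, adjusted p = 0.765). NDUFA7 was at 67.5 and 70.8 FPKM under the overexpression label and 63.8 and 57.8 FPKM under the vector label (limma, adjusted p = 0.754), with the shared sequence given above. In both genes the groups did not overlap. Among core subunits, NDUFV2, an iron-sulfur subunit of the NADH-binding part, was at 160.1 and 141.1 FPKM under the overexpression label and 140.65 and 124.7 FPKM under the vector label, and its neighbour NDUFV1, which holds the flavin, at 64.7 and 68.4 FPKM under the overexpression label and 70.6 and 67.8 FPKM under the vector label, where the groups overlapped.

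Complex II feeds electrons from succinate. Its 4 subunits summed to 283 and 247 FPKM in the overexpression-labelled libraries and 262 and 242 FPKM in those labelled vector, and the groups overlapped in all 4. SDHB had the highest estimate, 0.15 ± 0.11 on the log2 scale (SE; limma, adjusted p = 0.861), and SDHD the lowest, -0.10 ± 0.11 (adjusted p = 0.912). SDHA, the flavoprotein, was at 55.4 and 53.5 FPKM under the overexpression label and 54.0 and 50.9 FPKM under the vector label, and SDHC, the other anchor, at 85.5 and 75 FPKM under the overexpression label and 77.4 and 70.4 FPKM under the vector label.

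Complex III passes electrons to cytochrome c. Its 11 tested rows, copies included, summed to 1218 and 1093 FPKM in the overexpression-labelled libraries and 1111 and 1010 FPKM in those labelled vector, with 9 log2 changes above 0 and a median of 0.13. That median was 0.059 with the common column sum, 0.048 with quantile normalization, 0.025 without overexpression-labelled library 1 and 0.048 without vector library 2. UQCRQ, a small subunit beside cytochrome b, had the highest estimate, at 63.4 and 56.1 FPKM under the overexpression label and 56.2 and 50.1 FPKM under the vector label (log2 change 0.16 ± 0.10, SE; limma, adjusted p = 0.817). Its groups overlapped narrowly. The groups were separate in UQCRC1, a core subunit, at 76.3 and 75.6 FPKM under the overexpression label and 68.7 and 67.6 FPKM under the vector label, and in CYC1, cytochrome c1, at 171 and 178 FPKM under the overexpression label and 166 and 154 FPKM under the vector label. The lowest estimate was that of the copy UQCRBP1 (-0.037), followed by UQCRB (-0.0092).

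Complex IV reduces oxygen. Its 13 tested rows, COX4NB included, summed to 3805 and 3336 FPKM in the overexpression-labelled libraries and 3558 and 3171 FPKM in those labelled vector. All 13 log2 changes were above 0, with a median of 0.088 that was 0.0046 under quantile normalization and 0.0082 without overexpression-labelled library 1, and library 1 lay above library 2 under both labels in all 13. NDUFA4 (chromosome 7, 10931951 to 10940256, GRCh38) had the highest estimate of any member, 0.25 ± 0.09 on the log2 scale (SE; limma, unadjusted p = 0.0286, adjusted p = 0.570). Its mean was 32.3 ± 0.49 FPKM in the overexpression-labelled libraries and 27.0 ± 2.1 FPKM in those labelled vector (SD, n = 2 each), and the groups did not overlap.

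COX5A was at 212 and 185 FPKM in the overexpression-labelled libraries, against 186 and 153 FPKM in those labelled vector, or 0.23 ± 0.13 on the log2 scale (SE; limma, adjusted p = 0.779). Its groups overlapped, since overexpression-labelled library 2 lay just below vector library 1. COX5B, the zinc-binding subunit, had the lowest estimate of the complex, at 219 and 187 FPKM under the overexpression label and 219 and 177 FPKM under the vector label (0.038; adjusted p = 0.977). The 8 tested genes of the isoform families had a median change of 0.10 and 0 passed the test, where 0.500% of all tested genes did.

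ATP synthase has a catalytic F1 part and a membrane Fo part joined by stalks. Its 16 tested rows summed to 4211 and 3815 FPKM in the overexpression-labelled libraries and 4016 and 3510 FPKM in those labelled vector, with 15 log2 changes above 0 and a median of 0.10 (0.014 with quantile normalization). The 5 F1 subunits had a median of 0.099 and the 10 Fo and stalk subunits 0.13. ATP5I, the e subunit that helps ATP synthase form dimers, was at 265 and 274 FPKM under the overexpression label and 239 and 234 FPKM under the vector label (log2 change 0.19 ± 0.09, SE; limma, adjusted p = 0.754). ATP5F1, the b subunit of the peripheral stalk, was at 69.1 and 65.0 FPKM under the overexpression label and 60.6 and 57.4 FPKM under the vector label (0.18 ± 0.09; adjusted p = 0.744). The groups did not overlap in either gene.

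**Figure D4:**
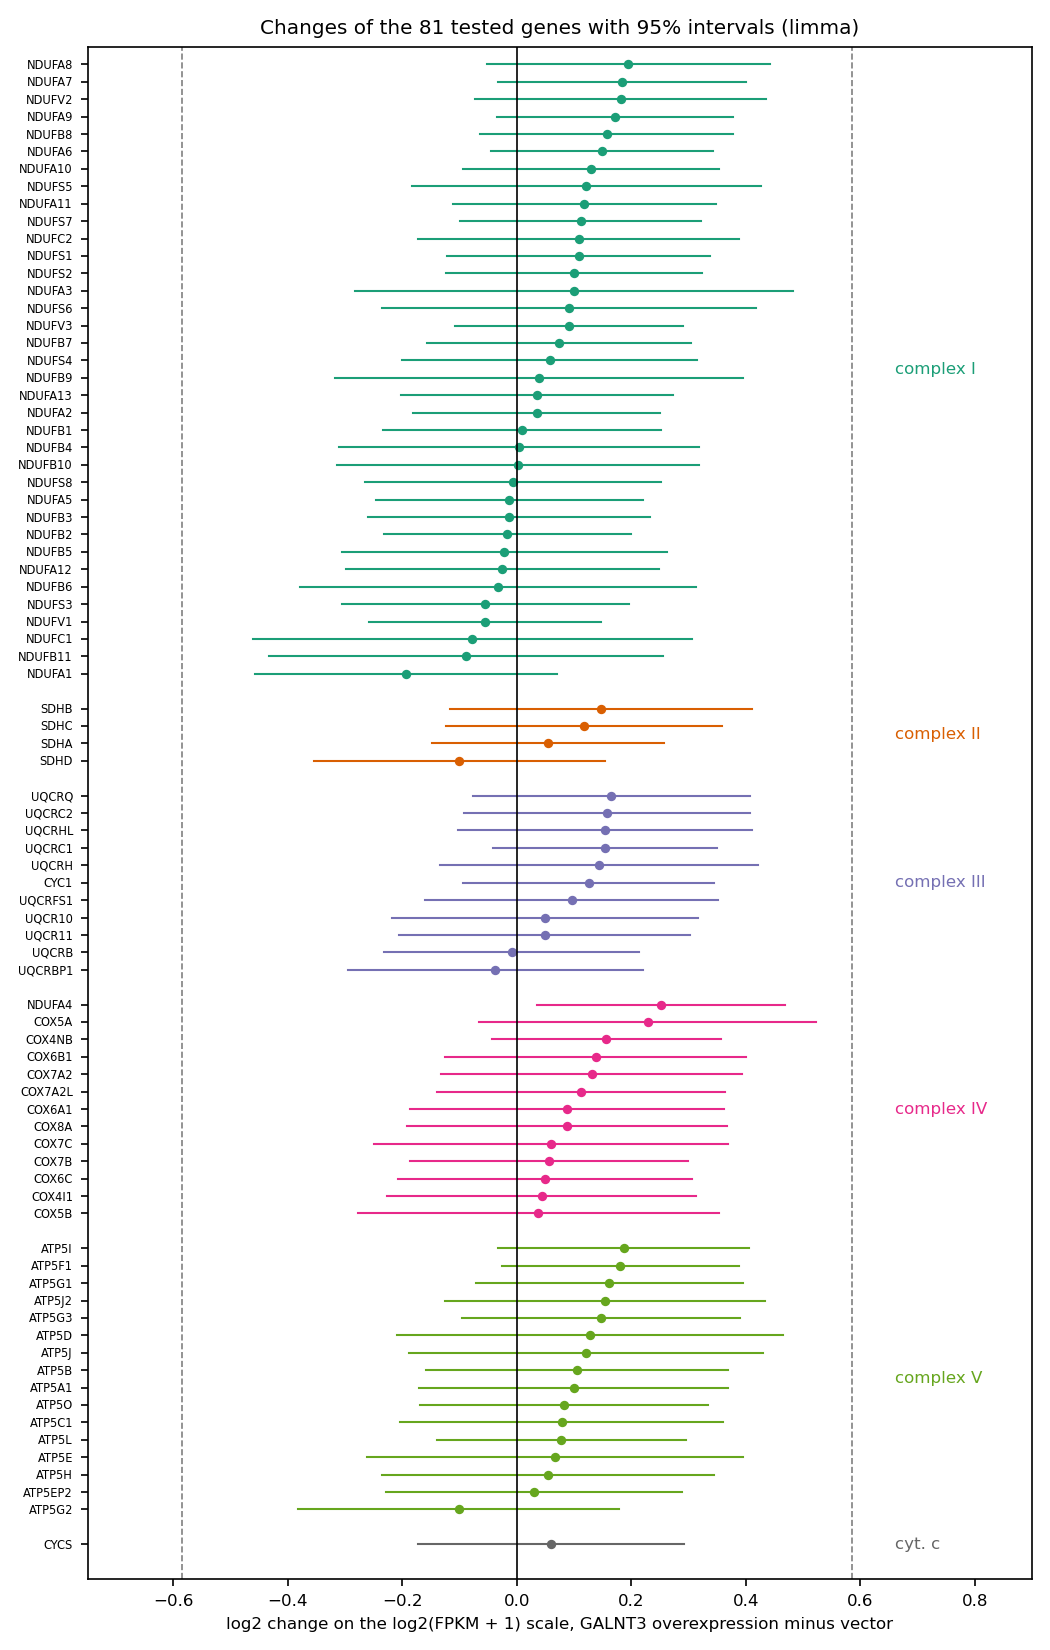
Log2 change on the log2(FPKM + 1) scale, overexpression-labelled libraries minus those labelled vector, for each of the 81 tested genes, with its 95% interval from limma, coloured by complex and sorted within it; dashed lines mark a 1.5-fold change. All 81 intervals lie between the dashed lines, and NDUFA4 is the gene whose interval does not cross 0.

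The c subunit, which forms the rotor ring of ATP synthase, is encoded by 3 nuclear genes whose mature proteins are the same and whose import sequences differ. Their summed level was 546 and 510 FPKM in the overexpression-labelled libraries and 542 and 474 FPKM in those labelled vector. Expressed as shares of that sum, a library-wide shift in scale drops out. ATP5G1 (chromosome 17, 48892765 to 48895871) made up 46.7% and 49.2% of the sum in the overexpression-labelled libraries, against 43.8% and 45.3% in those labelled vector. ATP5G2 (chromosome 12, 53632726 to 53677408) made up 38.02% and 35.95% under the overexpression label and 42.0% and 40.5% under the vector label. ATP5G3 (chromosome 2, 175176258 to 175184607) made up 15.3% and 14.8% under the overexpression label and 14.1% and 14.2% under the vector label.

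The groups did not overlap in any of the 3 shares, which are parts of the same sum and so are not separate observations. For FPKM levels, both overexpression-labelled libraries lay above both labelled vector in 20.9% of all tested genes and below both in 15.3%. How often shares of a sum separate was not computed, so these percentages are no measure of it. In FPKM the groups were separate in ATP5G1 and overlapped in ATP5G2 and ATP5G3. The mean share of ATP5G1 was 47.9 ± 1.8% in the overexpression-labelled libraries and 44.6 ± 1.1% in those labelled vector, and that of ATP5G2 was 37.0 ± 1.5% under the overexpression label and 41.3 ± 1.1% under the vector label (SD, n = 2 each). A two-sided exact permutation test gave p = 0.333 for each share, the smallest that this test can give with 2 libraries against 2. In the test of single genes, ATP5G1 was at 255 and 251 FPKM under the overexpression label and 237 and 215 FPKM under the vector label (log2 change 0.16; limma, adjusted p = 0.810). ATP5G2 was at 207 and 183 FPKM under the overexpression label and 228 and 192 FPKM under the vector label (-0.10; adjusted p = 0.914) and had the lowest estimate of the complex, and ATP5G3 was at 83.5 and 75.7 FPKM under the overexpression label and 76.6 and 67.1 FPKM under the vector label (0.15; adjusted p = 0.846). All 3 shares were described after their values were seen.

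**Figure D5:**
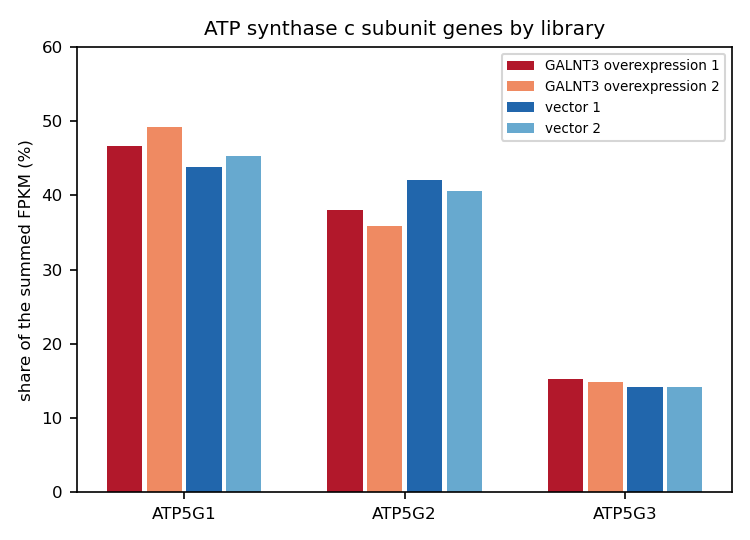
Share of each c subunit gene in the summed FPKM of ATP5G1, ATP5G2 and ATP5G3 (%), with a bar for each library, those labelled overexpression (red, orange) left of those labelled vector (blue). ATP5G1 and ATP5G3 are higher, and ATP5G2 lower, in both overexpression-labelled libraries than in both labelled vector, with differences of group means of 3.38, 0.93 and -4.31 percentage points for ATP5G1, ATP5G3 and ATP5G2.

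The genes that assemble and supply the chain gave no call in limma. Over all tested genes 0.500% passed, so 0 calls in lists this short say little about the listed genes. Of 4 further subunits and regulators whose symbols fall outside the rule, 0 passed; C14orf2, a small subunit of ATP synthase, was at 290 and 260 FPKM in the overexpression-labelled libraries and 230 and 222 FPKM in those labelled vector (log2 change 0.28; limma, adjusted p = 0.570). Among assembly factors 0 of 17 passed for complex I, 0 of 4 for complex II, 0 of 7 for complex III, 0 of 24 for complex IV and 0 of 5 for complex V. Their median log2 changes were 0.027, 0.17, -0.033, 0.074 and 0.071 in that order.

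The gene with the smallest p among complex II factors was ACN9 (now SDHAF3), which protects the iron-sulfur subunit, at 8.13 and 7.69 FPKM in the overexpression-labelled libraries and 5.91 and 6.21 FPKM in those labelled vector (log2 change 0.34 ± 0.10, SE; limma, adjusted p = 0.403). For complex IV it was HIGD1A, a hypoxia-induced partner of the enzyme, at 40.0 and 34.8 FPKM under the overexpression label and 31.1 and 29.4 FPKM under the vector label (limma, adjusted p = 0.513). For the other complexes it was TMEM186 (-0.26), C11orf83 (0.16) and C7orf55 (0.23), with adjusted p of 0.699, 0.846 and 0.624. The groups did not overlap in ACN9 or HIGD1A.

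Upstream of the chain, 0 of 13 genes of coenzyme Q synthesis, 0 of 6 other enzymes that reduce coenzyme Q, 0 of 13 citric acid cycle genes and 0 of 7 nucleotide, phosphate and pore carriers passed, where 0.500% of all tested genes did. SUCLG2, a subunit of the GTP-forming succinate-CoA ligase, had the smallest p of the cycle, at 17.8 and 16.2 FPKM in the overexpression-labelled libraries and 20.8 and 20.3 FPKM in those labelled vector (log2 change -0.26; limma, adjusted p = 0.564). In the remaining lists it was COQ4, ETFA and VDAC3, with log2 changes of 0.20, 0.18 and 0.17 and adjusted p of 0.731, 0.804 and 0.778 (limma). In the citric acid cycle library 1 lay above library 2 under both labels in 6 of 13 genes. The difference from the 70 of 81 of the chain was not tested.

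Of 16 regulators of mitochondrial gene expression 0 passed, where 0.500% of all tested genes did. GABPB1, the partner of the ETS factor GABPA, was nearest, at 11.7 and 14.04 FPKM in the overexpression-labelled libraries and 7.99 and 8.80 FPKM in those labelled vector (log2 change 0.56 ± 0.12, SE; limma, adjusted p = 0.161). NRF1, the nuclear respiratory factor, was at 6.25 and 7.46 FPKM under the overexpression label and 5.43 and 6.37 FPKM under the vector label, where the groups overlapped (adjusted p = 0.836). Library 2 lay above library 1 for both factors under each label, the reverse of the order in most chain subunits.

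Of 6 tested genes of the hypoxia-inducible factors and their mitochondrial targets, none of them a chain subunit, 1 passed, where 0.500% of all tested genes did. EPAS1, which encodes HIF-2 alpha, fell to 8.48 and 9.26 FPKM in the overexpression-labelled libraries, against 20.9 and 16.4 FPKM in those labelled vector (log2 change -0.98 ± 0.13, SE; limma, adjusted p = 0.0252). Its adjusted p was 0.124 without vector library 1 (log2 change -0.82) and 0.220 with every gene above 0 tested. HIF1A was at 59.96 and 50.1 FPKM under the overexpression label and 64.2 and 49.1 FPKM under the vector label, and the low-oxygen isoforms NDUFA4L2 and COX4I2 were at the levels given above.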

How the data were processed

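Poly(A) RNA of 4 H2030 libraries, 2 per group, was prepared with silica columns and a stranded mRNA kit, per the labels' protocols. The authors deposited 1 table with a column of FPKM per library; the header names no unit, and FPKM was read from the values. TopHat and GenomeStudio 2010.1 are named in the submitters' processing notes, as are GRCh38 and hg19, all without roles. How fragments were counted and filtered, and with which annotation, is not given in these sources. FPKM divides by each library's total, so abundant genes can shift all other values, and near-identical copies can exchange fragments.

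Values were transformed to log2(FPKM + 1), which understates changes of low genes. The 10998 genes averaging 1 FPKM or more were compared with limma 3.58.1 under R 4.3.3 (lmFit, then eBayes with trend), group as the only term, with two-sided p adjusted by the Benjamini-Hochberg method over all of them (2 residual and 5.34 prior degrees of freedom). The procedure was tested on simulated data. Python 3.11.15 with scipy 1.17.1 and pandas 2.3.3 did the rest. No count test was run, and depth in reads is unknown.

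Members and lists were chosen with earlier results of these data known. Genes named by rule were isoform list members, the highest and lowest level and change per complex, the 6 smallest unadjusted p, members at 0 in some libraries, and each list's called or smallest-p gene. Others were named after their values were seen. Symbols and positions were matched to RefSeq (GRCh38.p14) names and GENCODE 29 (91 of 91), and promoters to RefSeq by the first listed start. Alternatives were other pseudocounts, filters and scalings, no trend, leaving out each library or the genes listed at 0, a replicate block and, added after seeing the data, a common column sum and current subunits only.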

Additional observations from a re-analysis of the deposited data

How the results depend on the processing

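Leaving out a library leaves 1 library under its label, which is then assumed to vary like the other group. In these fits 0 members passed in limma, which with fewer libraries says nothing about stability, and the genes that passed over the whole table numbered 8 to 22 higher (12 with all libraries) and 14 to 62 lower (43). Testing every gene above 0 gave 3 higher and 9 lower, and a mean of at least 5 FPKM gave 22 lower. The labels number the libraries 1 and 2 in each group, without saying that a number marks a shared batch. Deviations of same-numbered libraries correlated at 0.22 across genes. With the replicate number as a block, limma called 222 genes higher and 221 lower (4.03% of tested genes) and 1 member, COX5A (adjusted p = 0.0473). Unadjusted p was below 0.05 in 24 members, 23 of them higher, compared with 19.4% of all genes. The block also called C14orf2 (0.0183), HIGD1A (0.0378) and GABPB1 (0.00327). The cause was not tested.

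The medians of all members and of each complex moved by less than 0.114, the SD between libraries of a group, under all alternatives. That SD is larger than the member median of 0.088, so a median could change sign within it. The complex I median, 0.048, did so: it was -0.017 with quantile normalization, -0.018 with the common column sum and -0.040 without overexpression-labelled library 1. The member median was 0.00 without overexpression-labelled library 1 and 0.17 without vector library 1, with the other alternatives between. Of 392 values for the 28 tested members named by rule, which do not include COX5A, 0 passed the threshold and 29 changed sign. The 2 libraries per group and the unknown read depth limit what could be seen.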
